A study of Mus musculus with 6 samples.

Results

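The Wnt pathway genes comprised 62 mouse genes, among 23462 gene symbols on the array. They were the protein-coding genes whose symbols are Wnt, Fzd, Sfrp, Dkk, Dvl or Rspo with a number, joined by Ctnnb1, Apc, Axin1, Axin2, Gsk3b, Lrp5, Lrp6, Lef1, Tcf7, Tcf7l1, Tcf7l2, Lgr4, Lgr5, Lgr6, Znrf3, Rnf43, Porcn and Wls, a choice by name that used no signal threshold. All 62 had a probe, and 88 probes stood for them. Of the 62 genes, 32 could be compared between the groups, and none of the 32 differed between cells with and without 4-nitrophenol after adjustment. The widest differences were those of Lgr6 and Fzd5, at 0.44 and 0.39 on the log2 scale, and the 2 detected probes of Ctnnb1, the beta-catenin gene, differed in opposite directions.

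RNA came from TM3 cells, a mouse line of testicular Leydig-type cells that the labels describe as a testicular somatic cell line. One group of 3 samples was kept for 24 h with 10 µM 4-nitrophenol (PNP, which the labels also spell nPNP), a nitrated phenol formed from parathion and present in diesel exhaust. The other group of 3 samples was kept at 0 µM, with treatment given as none, and the labels name no vehicle. Each sample was hybridised to its own 1-colour Agilent array. The labels do not say if each sample was its own culture, and a p-value here therefore reflects a spread between samples that could be technical alone. As a model the line is a single cell line at 1 dose and 1 time. Of the Leydig markers, Star, the cholesterol transporter, and Nr5a1, the steroidogenic transcription factor, were well above background on all 6 arrays. Cyp17a1, the steroid 17-hydroxylase, was so on 5 arrays and Hsd3b1, the 3-beta-hydroxysteroid dehydrogenase, on 1. Cyp11a1, the side-chain cleavage enzyme, Hsd3b6 and Lhcgr, the luteinizing hormone receptor, were so on none, so part of the Leydig identity was not detected. Insl3, also on the Leydig list, had no named probe on the array and could not be checked. Markers of other cell types were present in part. Of the macrophage and leukocyte list, Cd14, Cd68 and Csf1r were above background on all 6 arrays and Ptprc and Adgre1 on none. Of the Sertoli list, Clu, Dmrt1, Rhox5 and Sox9 were so on all 6 and Amh, Fshr and Cldn11 on none, and of the epithelial list Krt8 and Krt18 were so on all 6 and Epcam and Cdh1 on none. Of the germ cell list, Ddx4, Prm2 and Sycp3 were so on all 6, Tnp1 on 5, Dazl on 1 and Prm1 on none. The endothelial gene Pecam1 was so on 1 array and Cdh5, Kdr and Tek on none, while all 4 peritubular myoid markers (Acta2, Myh11, Cnn1, Tagln) were so on all 6.

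Wnt proteins are secreted lipid-modified ligands that bind Frizzled receptors and the co-receptors Lrp5 and Lrp6. Without a ligand, a complex of Axin, Apc and Gsk3b marks beta-catenin, the product of Ctnnb1, for destruction; with a ligand, Dishevelled proteins disable that complex, and beta-catenin enters the nucleus and works with Tcf and Lef factors. Some ligands signal through other routes that do not need beta-catenin. In the gonads the pathway is best known from ovarian development, in which Wnt4 and Rspo1 take part, and beta-catenin is also known to work with Nr5a1 in steroid-producing cells.

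The Tcf and Lef factors bind a short DNA word, and several pathway genes are themselves known targets of the pathway. The words CTTTGAT and CTTTGTT were searched on both strands of RefSeq promoter windows of assembly GRCm38.p6, each 300 bases long, from 250 bases before to 50 bases after a gene's start. The words differ in a single letter, so they cannot occupy the same place. A window with either word was found for 6 of the 41 Wnt pathway genes in the table (14.6%; Dkk1, Fzd7, Tcf7l2, Wnt11, Wnt3 and Wnt5b) and for 2866 of 27025 genes overall (10.6%), and 21 members had no entry. The 250 bases before the start are shown for the 3 of these genes that were also tested here, to set the letters beside their values. Capitals mark the match, which for Wnt11 is the reverse complement of CTTTGAT. The windows are chr6:119449387-119449636 (minus strand) for Wnt5b, chr7:98834862-98835111 (plus strand) for Wnt11 and chr19:55895071-55895320 (plus strand) for Tcf7l2.
Wnt5b: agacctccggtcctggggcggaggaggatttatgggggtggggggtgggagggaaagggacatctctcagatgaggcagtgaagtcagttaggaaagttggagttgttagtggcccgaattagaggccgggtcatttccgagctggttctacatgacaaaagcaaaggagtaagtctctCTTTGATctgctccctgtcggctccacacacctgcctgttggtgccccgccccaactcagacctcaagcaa
Wnt11: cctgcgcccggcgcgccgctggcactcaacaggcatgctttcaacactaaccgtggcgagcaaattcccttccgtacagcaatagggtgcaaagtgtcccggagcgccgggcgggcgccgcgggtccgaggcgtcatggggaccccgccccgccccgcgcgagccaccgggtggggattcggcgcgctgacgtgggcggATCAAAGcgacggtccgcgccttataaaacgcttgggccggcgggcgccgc
Tcf7l2: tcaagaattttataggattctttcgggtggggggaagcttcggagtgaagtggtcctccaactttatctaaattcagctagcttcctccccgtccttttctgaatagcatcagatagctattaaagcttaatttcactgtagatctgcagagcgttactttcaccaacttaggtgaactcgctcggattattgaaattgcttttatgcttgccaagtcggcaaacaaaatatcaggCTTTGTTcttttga
A match describes the letters alone. These 3 genes differed between the groups by 0.11, -0.16 and 0.08 (log2), none past the threshold.

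Signals are given as the scaled log2 signal, the log2 of an array's processed signal minus the 75th percentile of that array's non-control spots, so 0 is the signal of that percentile. The value depends on the probe as well as on the transcript, so signals are compared between arrays for a probe and never between probes. A difference is PNP minus control on this scale, with the standard error (SE) of the limma fit. Between 59.9% and 62.6% of spots were well above background on each array and no spot was saturated. Spots that the scanner software marked as outliers made up 7.75% ± 1.27 (SD, n = 3) of the control arrays and 12.3% ± 0.81 (SD, n = 3) of the PNP arrays (exact permutation test, two-sided, p = 0.1, the smallest that 3 against 3 allows). Over the Wnt pathway probes the shares were 8.71% ± 2.86 and 9.85% ± 2.37 (SD, n = 3 each; exact permutation p = 0.8), and all 49 of their marks, among 528 readings, were for a non-uniform spot. Precision was limited by having 3 arrays in a group: the median half-width of the 95% interval of a difference was 0.28 (log2) for the 32 genes and 0.28 for all 13138 genes tested.

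Which Wnt pathway genes the cells expressed was nearly the same on all arrays. On every control array 38 of the 62 genes had a probe well above background, and on every PNP array 37 had one (exact permutation test, two-sided, p = 0.1). The genes behind that difference were Wnt8a and Dkk4. Wnt8a, a ligand, was above background on controls 1 and 3 and on no PNP array; its signals were -5.44, -5.58 and -5.55 on the controls and -5.76, -5.62 and -5.62 with PNP, so all 6 lay close together at the edge of detection. Dkk4, a secreted inhibitor that blocks Lrp5 and Lrp6, was above background on control 2 alone, through 1 of its probes: -4.82 there, against -7.09 and -7.86 on the other controls and -7.37, -6.85 and -6.91 with PNP. A lower bound on the fold came out under 1 for both genes, so no fold is given. A second Fzd5 probe was above background on control 3 alone.

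**Figure D1:**
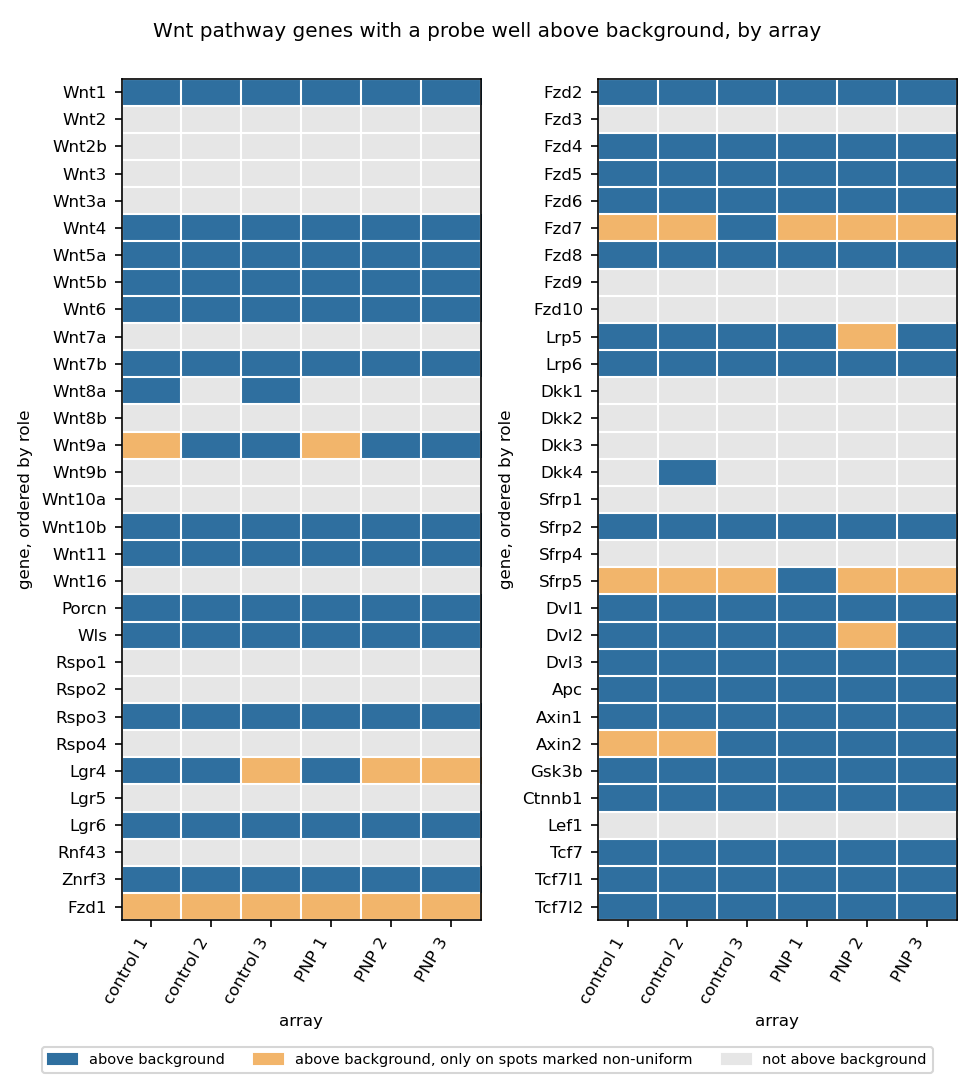
Detection of the 62 Wnt pathway genes (rows, ordered by role, in 2 panels) on the 3 control and 3 PNP arrays (columns). Blue marks a gene with a probe well above background, orange a gene above background only on spots marked non-uniform, and grey a gene not above background; Wnt8a and Dkk4 are the genes whose detection varied between arrays.

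The 23 genes above background on no array lay mostly among the secreted members. Of 19 Wnt ligands, 9 (Wnt2, Wnt2b, Wnt3, Wnt3a, Wnt7a, Wnt8b, Wnt9b, Wnt10a and Wnt16) were in that state, as were 3 of 4 R-spondins (Rspo1, Rspo2 and Rspo4), 5 of 8 secreted inhibitors (Dkk1, Dkk2, Dkk3, Sfrp1 and Sfrp4), 3 of 10 Frizzled receptors (Fzd3, Fzd9 and Fzd10), Lgr5, Rnf43 and Lef1. Inside the cell, all 3 Dishevelled genes, all 4 genes of the destruction complex and Ctnnb1 were above background on all arrays of a group. So were 3 of 4 Tcf and Lef factors, both Lrp co-receptors and both secretion genes. Not being above background gives only an upper limit on the signal of the probes on this array. A further 5 genes, Axin2, Fzd1, Fzd7, Lgr4 and Sfrp5, were above background but kept too few unmarked spots to be compared. Their values with the marked spots kept are given below with their roles.

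Of the 32 tested genes, 0 passed an adjusted p of 0.05 in limma, as did 0 of all 13138 genes (0%). At an unadjusted p under 0.05 stood 4 of the 32 (Lgr6, Fzd5, Znrf3 and Ctnnb1), against 856 of all genes (6.52%), and the smallest adjusted p among the 32 was 0.740 (limma). The median difference was 0.04 (log2) over the 32 genes and 0.04 over all genes, and the median size of a difference without its sign was 0.11 and 0.10. A higher signal with PNP was found for 21 of the 32 genes and for 63% of all genes. With each array scaled on its median instead, the counts were 15 of 32 and 44.2%, so the split between higher and lower follows the scaling, for these genes and for all genes. The 95% interval lay within 1.5-fold in both directions for 28 of the 32 genes and for 84.4% of all genes; the exceptions were Lgr6, Fzd5, Wnt4 and Wnt11. The differences of these bulk samples cannot tell fewer cells of a type from less RNA per cell.

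**Figure D2:**
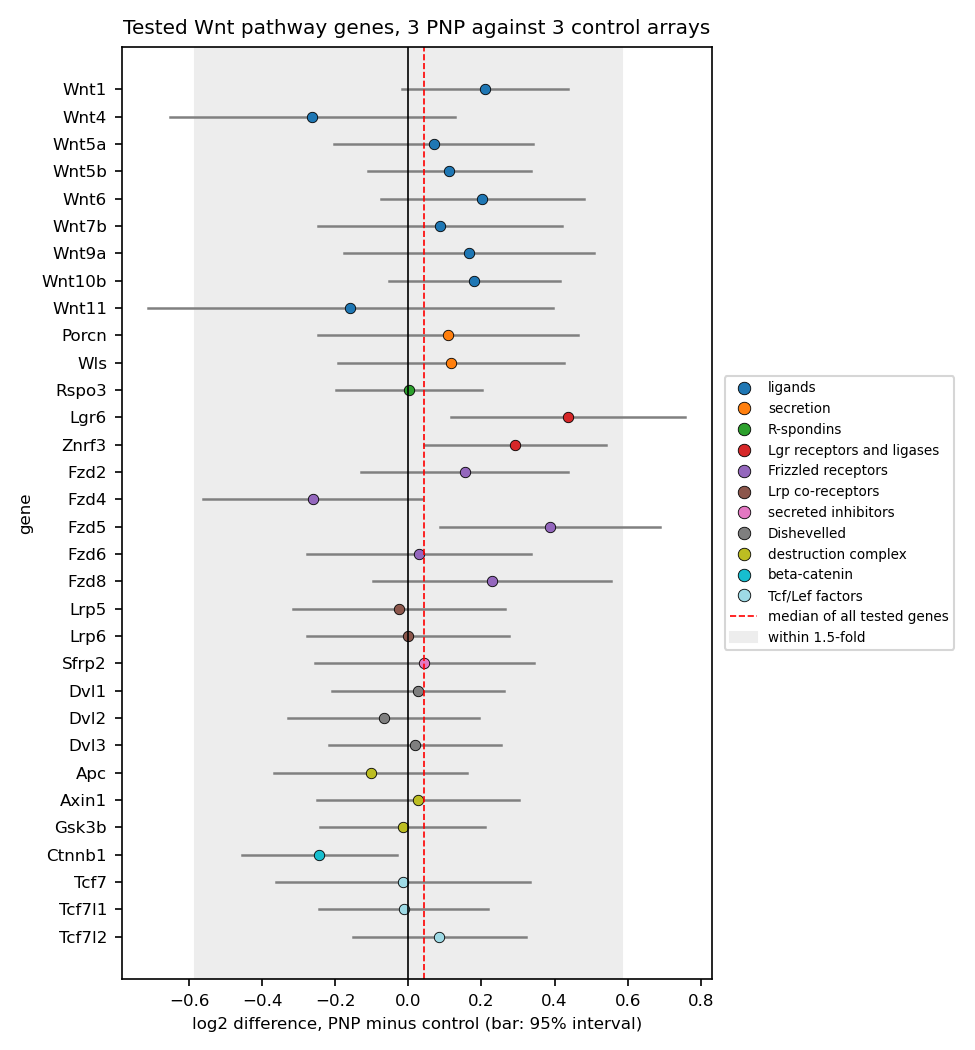
Log2 difference, PNP minus control, of the 32 tested Wnt pathway genes (points, coloured by role) with the 95% interval of the limma fit over 3 control and 3 PNP arrays. The grey band is a change within 1.5-fold either way and the dashed line the median of all 13138 tested genes; the intervals of Lgr6, Fzd5, Znrf3 and Ctnnb1 leave out 0, none with an adjusted p under 0.740.

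With a value on all 6 arrays, 29 of the 32 genes could be checked for overlap of the groups. For 5 of them (Fzd5, Lgr6, Wnt1, Wnt10b and Znrf3) the 3 PNP values lay wholly above the 3 control values, as for 9.15% of all genes, and for 1 (Ctnnb1) wholly below, as for 2.3% of all genes. Without PNP replicate 2 the groups were apart in 11 of 31 genes with a value on the other 5 arrays, and in 33.3% of all genes. At that setting 9 of the 32 genes and 1745 of all 13138 genes had an unadjusted p under 0.05. Without control replicate 2 or control replicate 3, 1 of the 32 genes did, as did 586 and 344 of all genes.

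Among the Wnt ligands 9 of 19 were tested: 7 had a higher mean with PNP and 2 a lower one, with differences from -0.26 to 0.21 and 0 called. Wnt1, the founding member of the family, had signals of -3.47, -3.32 and -3.29 on the controls and -3.13, -3.25 and -3.08 with PNP. All PNP values were above all control values, by a narrow margin, and the difference was 0.21 (SE 0.10; limma adjusted p = 0.791). Wnt10b, a ligand of the beta-catenin branch, gave -5.17, -5.20 and -5.31 on the controls and -5.05, -4.92 and -5.16 with PNP. The groups were apart by less than 0.01 between PNP 3 and control 1, and the difference was 0.18 (SE 0.10; limma adjusted p = 0.846).

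Wnt4 and Wnt11 are described because their intervals reached past 1.5-fold, a choice made after their values were seen. Wnt4, known for its part in gonad development, had 0.67, 0.74 and 0.59 on the controls and 0.18, 0.82 and 0.23 with PNP. PNP 1 and 3 lay below all controls and PNP 2 above them, so the difference of -0.26 (SE 0.17; limma adjusted p = 0.878) hid opposite values. Wnt11, which signals largely without beta-catenin, had -2.71, -2.58 and -2.90 on the controls and -3.03, -2.30 and -3.34 with PNP. Again PNP 2 was the highest of the 6 arrays and PNP 1 and 3 the lowest, the difference was -0.16 (SE 0.24; limma adjusted p = 0.951), and a second Wnt11 probe differed by 0.22 (SE 0.12) the other way. Wnt6 at 0.20, Wnt9a at 0.17, Wnt5b at 0.11, Wnt7b at 0.09 and Wnt5a at 0.07 completed the tested ligands, with Wnt9a measured on 2 arrays of each group. With its marked spots kept, Wnt9a differed by -0.005 (SE 0.13). The second probe of Wnt5a, a ligand of the branch without beta-catenin, differed by -0.23 (SE 0.25).

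Of the genes for ligand secretion, Porcn attaches the lipid to Wnt proteins and Wls carries them to the cell surface. Porcn had -1.91, -1.86 and -2.01 on the controls and -1.69, -2.17 and -1.59 with PNP, a difference of 0.11 (SE 0.15; limma adjusted p = 0.951). Wls had 1.75, 1.92 and 1.92 on the controls and 2.24, 1.77 and 1.93 with PNP, a difference of 0.12 (SE 0.13; limma adjusted p = 0.949). For Porcn, PNP 1 and 3 lay above all controls and PNP 2 below them; for Wls, PNP 1 and 3 lay above them, PNP 3 by 0.01, and PNP 2 among them.

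The R-spondins strengthen Wnt signals through the Lgr4, Lgr5 and Lgr6 receptors by removing Znrf3 and Rnf43, ubiquitin ligases that clear Frizzled receptors from the surface. Rspo3, the R-spondin above background, had -0.19, -0.12 and -0.08 on the controls and -0.11, -0.15 and -0.12 with PNP. All 6 values lay within a narrow band, and the difference was 0.00 with a 95% interval from -0.20 to 0.20 (SE 0.09; limma adjusted p = 0.998).

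Lgr6 had signals of -4.22, -4.26 and -4.58 on the controls and -3.96, -4.08 and -3.71 with PNP. All PNP values were above all control values, and control 3 was the lowest of the 6. The difference was 0.44 (SE 0.14, 95% interval 0.12 to 0.76), a fold of 1.35, with an adjusted p of 0.740 in limma. Znrf3 had -3.55, -3.72 and -3.85 on the controls and -3.34, -3.47 and -3.45 with PNP. The groups were again apart, with a difference of 0.29 (SE 0.11; limma adjusted p = 0.740), but its probes were not of 1 size. A second tested probe differed by 0.16 (SE 0.12), and another, left out for marked spots, by 0.02 (SE 0.13) with those spots kept.

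Lgr4 was above background on every array but marked on control 3 and on PNP 2 and 3. With marked spots kept it had -0.95, -1.05 and -0.77 on the controls and -0.46, -0.90 and -0.54 with PNP, a difference of 0.29 (SE 0.14; limma adjusted p = 0.846). PNP 1 and 3 lay above all controls and PNP 2 between them.

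**Figure D3:**
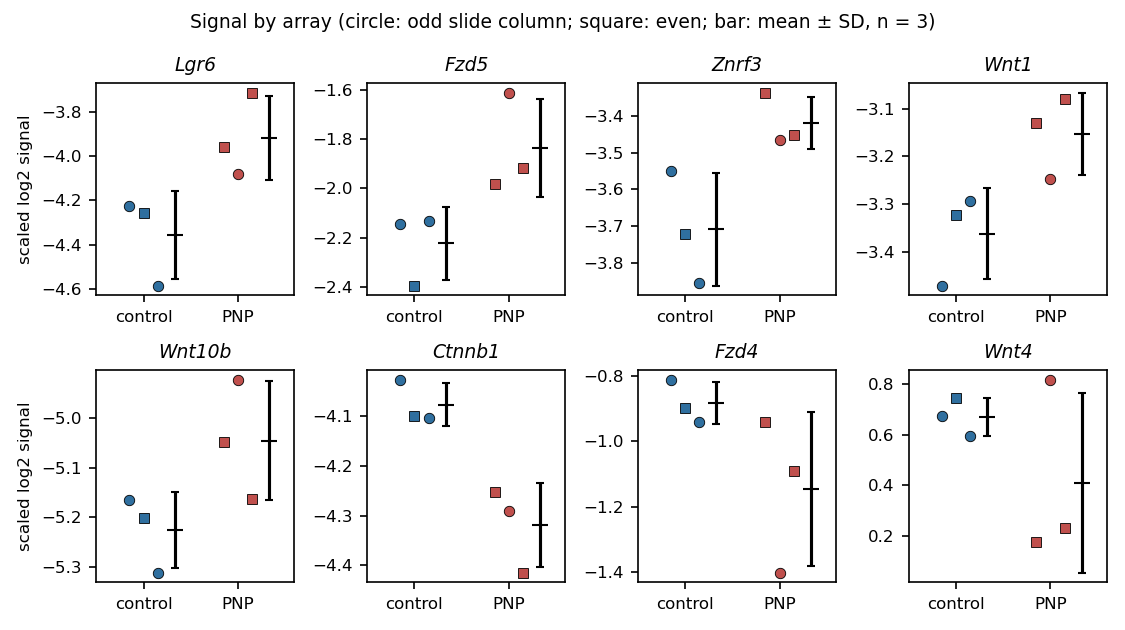
Scaled log2 signal of 8 Wnt pathway genes on each array, controls in blue and PNP in red, with each panel on its own axis. Points are arrays, in odd (circles) or even (squares) slide columns, and bars are the mean ± SD of 3 arrays; the groups are apart in the first 6 panels and overlap in Fzd4, where PNP 1 meets control 3, and in Wnt4, where PNP 2 is the highest array.

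Of 10 Frizzled receptors 5 were tested, 4 with a higher mean and 1 with a lower one, 0 called. Fzd5 had -2.14, -2.39 and -2.13 on the controls and -1.98, -1.61 and -1.92 with PNP. All PNP values were above all control values, PNP 2 by the most, and the difference was 0.39 (SE 0.13, 95% interval 0.09 to 0.69), a fold of 1.31, with an adjusted p of 0.740 in limma. Fzd4, which also serves the ligand norrin in blood vessels, had -0.81, -0.90 and -0.94 on the controls and -0.94, -1.40 and -1.09 with PNP. PNP 1 equalled control 3 to within 0.01 and PNP 2 was far the lowest, and the difference was -0.26 (SE 0.13, 95% interval -0.56 to 0.04; limma adjusted p = 0.811). Fzd8 at 0.23, Fzd2 at 0.15 and Fzd6 at 0.03 were the others. With marked spots kept, Fzd1 differed by -0.07 (SE 0.14) and Fzd7 by -0.17 (SE 0.19).

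The co-receptors had differences near 0. Lrp5 had -0.47, -0.69 and -0.42 on the controls and -0.59 and -0.51 on PNP 1 and 3, its PNP 2 spot being marked. The difference was -0.02 (SE 0.12; limma adjusted p = 0.984), and 0.10 (SE 0.14) with that spot kept. Lrp6 had 1.57, 1.31 and 1.18 on the controls and 1.38, 1.40 and 1.29 with PNP, so the PNP values fell inside the range of the controls. Its 95% interval ran from -0.28 to 0.28.

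Of the secreted inhibitors, which trap Wnt proteins (Sfrp) or block the co-receptors (Dkk), 1 of 8 was tested. Sfrp2 had 1.35, 1.07 and 1.34 on the controls and 1.16, 1.51 and 1.22 with PNP. The groups overlapped, with a difference of 0.04 (SE 0.13; limma adjusted p = 0.972). Sfrp5, with marked spots kept, had 0.24, -0.14 and 0.12 on the controls and -0.71, 0.50 and 0.50 with PNP, and its difference of 0.02 (SE 0.30) joined PNP arrays that lay on opposite sides of the controls.

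The Dishevelled genes differed by 0.03 (Dvl1), -0.07 (Dvl2) and 0.02 (Dvl3). Dvl2 had 1.75, 1.69 and 1.72 on the controls and 1.75 and 1.56 on PNP 1 and 3, with PNP 2 marked (SE 0.11; limma adjusted p = 0.953). Dvl1 had 0.76, 0.96 and 0.83 on the controls and 1.00, 0.83 and 0.81 with PNP (SE 0.10; limma adjusted p = 0.977). In both genes at least 1 PNP array lay inside the range of the controls.

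In the destruction complex, Apc is the scaffold that binds beta-catenin, Axin1 the scaffold that holds the complex together and Gsk3b the kinase. Apc had -3.91, -4.18 and -3.88 on the controls and -4.20, -4.07 and -4.01 with PNP, a difference of -0.10 (SE 0.12; limma adjusted p = 0.946). Axin1 had 0.68, 0.72 and 0.49 on the controls and 0.82, 0.67 and 0.48 with PNP, a difference of 0.03 (SE 0.12; limma adjusted p = 0.983). The groups overlapped in both. Gsk3b differed by -0.02 (SE 0.10), with a 95% interval from -0.24 to 0.21. Axin2, widely used as a readout of beta-catenin activity because it is itself a target, was left out of the test for marked spots on controls 1 and 2. With them kept it had -2.92, -3.05 and -3.37 on the controls and -3.49, -2.81 and -3.08 with PNP, and the PNP values reached past the controls on both sides (difference -0.01, SE 0.19, 95% interval -0.44 to 0.41).

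Ctnnb1 encodes beta-catenin and marks the pathway. Its tested probe had -4.03, -4.10 and -4.10 on the controls and -4.25, -4.29 and -4.42 with PNP. Every PNP value lay below every control value, and the difference was -0.24 (SE 0.09, 95% interval -0.46 to -0.03), a fold of 0.845, with an unadjusted p of 0.0297 and an adjusted p of 0.740 in limma. A second Ctnnb1 probe was above background on all 6 arrays and was left out because its spot was marked non-uniform on all 6. With those spots kept it had 2.57, 2.40 and 2.78 on the controls and 2.92, 2.69 and 2.74 with PNP, a difference of 0.20 (SE 0.13) in the opposite direction. The groups overlapped on that probe, through control 3. So the direction for Ctnnb1 depended on the probe, and which of the probes follows the transcript was not tested.

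**Figure D4:**
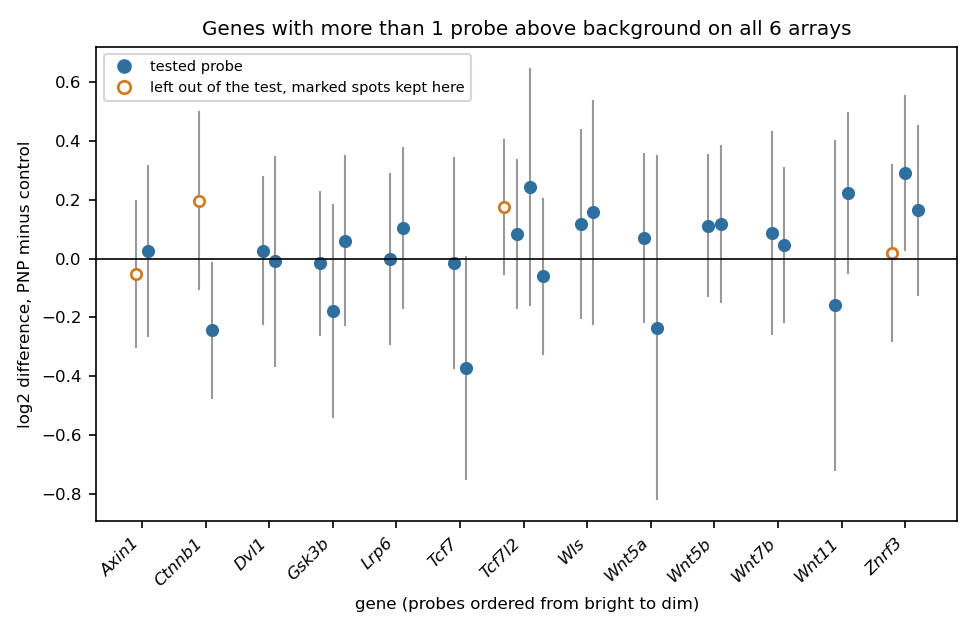
Log2 difference, PNP minus control, of each probe of the 13 Wnt pathway genes with more than 1 probe above background on all 6 arrays, with 95% intervals from limma fits over probes. Filled points are tested probes and open points are probes left out for marked spots, shown with those spots kept; the Ctnnb1 probes lie on opposite sides of 0, and those of Wnt5b and Wls on the same side.

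Probes of the same gene gave a check that the gene values alone could not. Of 11 genes with at least 2 tested probes, 6 (Dvl1, Gsk3b, Lrp6, Tcf7l2, Wnt11 and Wnt5a) had probes of opposite sign, and the 95% interval of each of these probes took in 0. In 4 tested genes (Axin1, Ctnnb1, Tcf7l2 and Znrf3) the brightest detected probe had been left out for marked spots.

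The Tcf and Lef factors carry the signal to DNA. Tcf7l2 had -0.67, -0.63 and -0.87 on the controls and -0.68, -0.56 and -0.67 with PNP, a difference of 0.08 (SE 0.10; limma adjusted p = 0.949). Tcf7l1, mostly a repressor, had 0.25, 0.41 and 0.46 on the controls and 0.33, 0.30 and 0.45 with PNP, a difference of -0.01 (SE 0.10; limma adjusted p = 0.989). On these probes neither separated the groups. The brightest Tcf7l2 probe was left out because its spot was marked on every array. With those spots kept it had 1.77, 1.74 and 1.84 on the controls and 1.91, 1.96 and 2.01 with PNP. All its PNP values were above all its control values, and the difference was 0.17 (SE 0.10, 95% interval -0.05 to 0.40). Tcf7 differed by -0.01 (SE 0.15) on its representative probe and by -0.37 (SE 0.16) on a second one.

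The 6 arrays lay on 1 slide, with all controls and PNP 1 in its first row and PNP 2 and 3 in its second, and the odd and even columns each held both groups. Within the first row PNP 1 alone can be set against the controls, with the values given above. Within the odd and the even columns, in that order, the difference was 0.32 and 0.42 for Lgr6, 0.53 and 0.45 for Fzd5, 0.24 and 0.33 for Znrf3, 0.13 and 0.22 for Wnt1, 0.31 and 0.10 for Wnt10b, and -0.23 and -0.23 for Ctnnb1. In these 6 genes the groups did not overlap, which fixes the sign in both columns. For Fzd4 it was -0.53 and -0.12. Wnt4 gave 0.18 and -0.54 and Wnt11 0.50 and -0.60, in each case opposite in sign. Over the 30 Wnt pathway genes with a value in both, the sign was shared by 15 (50%), against 49% of all genes.

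Other genes of the pathway were looked at as 2 lists. The first held 62 further genes of Wnt machinery, such as planar polarity receptors, glypicans, casein kinases and further inhibitors. Of them 46 were tested, 35 with a higher mean and 11 with a lower one, and 0 were called. At an unadjusted p under 0.05 (limma) stood 3, and the median difference was 0.07 (log2). Over all genes 63% were higher (44.2% with median scaling), 6.52% had such a p, and the median was 0.04. Of 39 with all 6 values, 5 had PNP values wholly above the controls and 1 wholly below, beside the 9.15% and 2.3% of all genes. Celsr3, a cadherin of the planar polarity branch, had -3.57, -3.86 and -3.87 on the controls and -3.25, -2.93 and -3.45 with PNP, and its difference was 0.56 (SE 0.15). Frzb, a secreted Wnt antagonist related to the Sfrp proteins, had -3.30, -3.91 and -3.70 on the controls and -4.19, -4.15 and -4.19 with PNP. All its PNP values were below all its control values, and the difference was -0.54 (SE 0.15). Second probes of both genes also separated the groups the same way, at 0.36 (SE 0.11) for Celsr3 and -0.50 (SE 0.13) for Frzb. Gpc4, a glypican, differed by 0.26 (SE 0.10). Its probes left out for marked spots differed by 0.25 (SE 0.12) and -0.08 (SE 0.15) with those spots kept. Btrc, which tags beta-catenin for destruction, differed by -0.52 (SE 0.35) on 1 probe and 0.01 (SE 0.13) on the other. None passed the adjusted threshold.

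The second list held 40 genes known as targets of beta-catenin and Tcf factors, 6 of them also Wnt pathway members here. Of the 40 genes 27 were tested, 17 with a higher mean and 10 with a lower one, and 0 were called. At an unadjusted p under 0.05 (limma) stood 2 (Sox9 and Znrf3), and the median difference was 0.07. The values over all genes were again 63% higher, 6.52% with such a p and a median of 0.04. Sox9, the transcription factor of Sertoli cells and cartilage, had -2.63, -2.76 and -2.55 on the controls and -2.43, -2.43 and -2.37 with PNP. The groups were apart, and the difference was 0.24 (SE 0.10), with 0.14 (SE 0.23) on a second probe. Gja1, the gap junction connexin, differed by -0.16 (SE 0.15) and Ephb2, an ephrin receptor, by -0.14 (SE 0.10), with 0.20 (SE 0.16) on its second probe. Of the 24 targets with all 6 values, 4 had PNP values wholly above the controls and 0 wholly below, beside 9.15% and 2.3% of all genes. The genes Notum and Nkd1 stand in both lists. Lef1, Lgr5, Rnf43, Sp5, Cdx1, Mmp7 and Cd24a were not above background on any array.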

How the data were processed

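TM3 cells were measured without (3 samples) and with 10 µM PNP for 24 h (3 samples), grouped by the dose in the labels. The deposited scanner files hold intensity values, made with Agilent Feature Extraction 11.5.1.1 per the file headers (10.7 per the submitters' processing notes). Their columns are those of the red channel, although the labels give Cy3, so the dye is unsettled. The authors also deposited a table of log2 values, used as an alternative, with no account of its making in the sources used here.

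Signals were log2-transformed and scaled on the 75th percentile. Spots marked as outliers were left out, and a probe was tested if well above background on all 3 arrays of a group with at least 2 values in each group. Matching accessions to RefSeq genes of assembly GRCm38.p6 named 33767 of 56605 probes. Each gene took its brightest tested probe. limma 3.58.1 (R 4.3.3, with the data.table package, version 1.17.8) compared the groups with lmFit and eBayes, two-sided. Benjamini-Hochberg adjustment ran over 13138 genes, and second tested probes come from a fit over 27222 probes. Values with marked spots kept come from separate fits, over 15046 genes for a gene's value and over probes for second probes. The script was tested on simulated data.

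The members, lists and rules were chosen with earlier results of these data known. Named with values are Ctnnb1, the 2 tested members of smallest unadjusted p in each role, those with unadjusted p under 0.05 or with groups apart, and the 2 genes of smallest p in each direction of the further lists; Wnt4, Wnt11 and genes with marked spots were added. The normexp alternative used the files' median signals in place of the mean signals planned.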

Additional observations from a re-analysis of the deposited data

How the results depend on the processing

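No Wnt pathway gene was called under any of the alternatives with a test. The median difference of the members, 0.04 (log2), was -0.0237 with median scaling, under which the median of all genes was -0.0182, and 0.0879 within the even slide columns alone, where that of all genes was 0.0799. The count of members with groups apart was 6 among 29 with all values (1273 of 11110 genes in all). It was 20 of 56 with no filter on dim probes (26.1% of all genes). With 1 array left out it was lowest without control replicate 1, at 6 of 29 (24.7% of all genes). It was highest without PNP replicate 2, at 11 of 31 (33.3% of all genes). The lowest share of all genes, 14.9%, came without control replicate 3, with 7 of 29 members. The members' smallest adjusted p in limma with 1 array left out was 0.203, without PNP replicate 2. Samples of the same replicate number did not deviate together (correlations of -0.31, -0.22 and -0.03). Each such pair joined an odd and an even slide column, so the correlations cannot decide whether the numbers pair samples. With a replicate block the median stayed 0.04, as the block cannot move the difference of a gene with all 6 values. With that block 0 members were called and the smallest adjusted p was 0.984 (limma). Over 18 settings the sign never changed for 8 of the 32 members (Fzd4, Fzd5, Fzd8, Lgr6, Wnt1, Wnt10b, Wnt6 and Znrf3). It changed once for 8 and 3 or more times for 15. In Fzd5, Lgr6, Wnt1, Wnt10b and Znrf3 the groups did not overlap, which fixes the sign with 1 array left out and within slide columns. With no filter, with all 6 arrays above background or with a replicate block, 0 of 32 signs changed. That outcome was nearly fixed beforehand, so it says little about stability. Under either filter the tested members kept their probes, and the block cannot move the difference of a gene with all 6 values. Ctnnb1 changed once, with marked spots kept (0.20), where its brighter second probe stood for the gene. Its tested probe stayed at -0.24 there. The values within odd or even slide columns were added after seeing the data. Signal over background limits the 23 members above background on no array.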
